A study of Mus musculus with 4 samples.

Results

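Peaks of N6-methyladenosine (m6A) that run across exon junctions are described here. Each peak in the authors' lists is made of exon blocks, and a peak of more than 1 block spans at least 1 junction between exons. The control list held 1281 such junction peaks among 10964 peaks, and the knockout list held 1696 among 9411. That is 11.7% of control peaks (exact 95% interval 11.1 to 12.3) and 18.0% of knockout peaks (17.2 to 18.8). The authors' block number chose the members, so these shares, and the block numbers themselves, are a description and support nothing. A peak just outside the choice is a peak of 1 block, called a single-block peak below, and a peak just inside has 2 blocks.

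The peaks come from MeRIP-seq, in which RNA is cut into short pieces, pieces bound by an m6A antibody are collected (IP), and both these and the uncollected starting RNA (input) are sequenced. Islets, the endocrine clusters of the pancreas, were taken at 7 weeks from mice of genotype Wtapflox/flox, the control, and from Wtap-βKO mice, the knockout. Both groups ate normal chow, and each is 1 pool of 2 μg RNA, from 10 control and 19 knockout mice, with 1 IP and 1 input library. Nothing in the sources used here gives the promoter that drives the deletion or the exon it removes, or says whether the knockout mice also carry floxed alleles in other cells. Islet cells other than beta cells keep Wtap if the deletion keeps to its label. There were no replicates, so no difference between the lists could be tested, and every interval below is one of counting error and leaves out the variation from animal to animal. Read depth is unknown, and the lists hold no expression levels, so the tissue label could be checked only by the presence of peaks in islet genes such as Chga, Gcg, Ppy and Neurod1. In whole islets, fewer cells of a type and less RNA or m6A per cell cannot be told apart.

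The mark m6A is the most common internal modification of mRNA and is written in the nucleus by a complex in which METTL3 is the catalytic subunit and WTAP a regulatory subunit that holds the complex in nuclear speckles. It is known to gather in long internal exons, around stop codons and in 3′ untranslated regions, and to be sparse close to splice junctions. The exon junction complex, which is left on mRNA just upstream of each junction after splicing, is known to keep the writer away from nearby sites. A peak that spans a junction joins exon blocks into a stretch many times longer than the modified base, so it does not place the base at the junction. The lists hold blocks and no reads, so whether single reads crossed a given junction could not be checked.

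The introns that the peaks skip are read from the gaps between blocks. In 5 of them RefSeq (GRCm38.p6) places a microRNA hairpin on the same strand, 2 in control and 4 in knockout junction peaks, 1 of them in both lists. These are the sequences that can be set against the gap ends, and 4 mature microRNAs are shown 5′ to 3′ with the seed (bases 2 to 8) in capitals. They were chosen because their hairpins reach the 3′ end of the intron within 1 bp.
mmu-miR-6897-3p: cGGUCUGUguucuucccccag
mmu-miR-6988-3p: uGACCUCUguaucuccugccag
mmu-miR-6942-3p: uUAUGGUUcucuccaccucuca
mmu-miR-5710: uCUUGGGAcauaguguaaggca
No 2 of the 4 share a seed.

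The hairpin of miR-6897 lies at chr1:36144252-36144313 on the minus strand, in an intron of 1780 bp of Uggt1, a glucosyltransferase of glycoprotein folding in the endoplasmic reticulum. The hairpin of miR-6988 lies at chr19:6051334-6051392 on the plus strand, in an intron of 82 bp of Syvn1, a ubiquitin ligase of endoplasmic reticulum-associated degradation. In both, the last base of the 3p microRNA is the last base of the gap between the blocks (0 bp away), and both sequences end in ag, the usual last letters of an intron. Such distances set RefSeq hairpin places against exon edges, and no measurement of microRNA in islets enters them. The hairpin of miR-6942 lies at chr13:21396578-21396638 on the minus strand in an intron of 4851 bp of Zkscan3, and it also ends with the intron, while the 3p microRNA stops 1 bp short. The hairpin of miR-5710 lies at chr9:54708313-54708381 on the plus strand in an intron of 2139 bp of Dnaja4, a co-chaperone gene, and stops 1 bp before the intron's 3′ end. Its mature microRNA, as shown above, ends 44 bp before the intron's 3′ end. The fifth, miR-5124a in an intron of 25919 bp of Gcnt2, ends 21330 bp away from the junction. Dnaja4 was the one gene of these 5 whose intron was skipped in both lists, with a fold of 6.67 in control and 2.84 in knockout islets. Fold is the ratio of IP to input that the authors' caller gave a peak, and like q it describes a peak within its own list. Where folds or q of both lists stand side by side below, each comes from 1 pair of libraries of unknown depth. Whether they differ by genotype was not tested. The host genes other than Uggt1 were named because of their microRNAs.

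Most junction peaks were made of 2 blocks in both lists. Peaks of 2 blocks were 1058 (82.6%) in control and 1303 (76.8%) in knockout islets, and peaks of 3 blocks were 174 (13.6%) and 310 (18.3%). Peaks of 4 or more blocks numbered 49 (3.83%, 2.84 to 5.03) and 83 (4.89%, 3.92 to 6.03). The highest block number was 7 in the control list, in Dctn1, a dynactin subunit gene, and 10 in the knockout list, in Kif21a, a kinesin motor gene. The Dctn1 peak had 1081 nt in 7 blocks in control and 1171 nt in 8 blocks in knockout islets, with folds of 5.15 and 5.22. Other peaks with many blocks by the naming rule were those of Taok2 (6 blocks, 1708 nt), Scg3, Os9 and P4hb (5 blocks each) in the control, and Myh9 and Nucb2 (9 blocks each) and Eif3a (8 blocks) in the knockout. Exonic length grew with block number, from a median of 240 nt at 2 blocks to 450 nt at 4 or more in the control, and from 210 to 509 nt in the knockout.

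Spanning peaks had lower folds but lower q than single-block peaks of the same list. The median fold was 3.49 (3.41 to 3.60) for control junction peaks and 4.03 (3.97 to 4.09) for control single-block peaks, and 3.26 (3.18 to 3.35) and 3.47 (3.42 to 3.53) for the same kinds of knockout peak. On the −log10 scale, on which a higher value is a lower q, the median q was 6.10 for control junction peaks against 4.58, and 5.71 for knockout junction peaks against 4.48. Folds of 8 or more were given to 10.4% of junction peaks and 18.4% of single-block peaks in the control, and to 7.19% and 13.9% in the knockout. Median exonic length was 241 nt against 211 nt in the control, whereas the knockout medians of 211 and 210 nt differed by 1 nt. The share that spanned a junction was highest among peaks of low q. With each list cut by q into 5 steps of equal size, 16.9% (15.3 to 18.5) of control peaks spanned a junction in the lowest step and 8.34% (7.22 to 9.58) in the highest. In the knockout list these shares were 25.2% (23.2 to 27.2) and 13.5%.

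The outer blocks of a junction peak were often uneven, with one that reached only a few bases past a junction. The shorter of the 2 outer blocks had a median of 32 nt in control and 33 nt in knockout islets. It was 10 nt or less in 19% of control and 17.9% of knockout junction peaks, and 1 nt in 23 and 32 peaks. The block on the 3′ side was the longer one in 60.7% (58.0 to 63.4) of control and 56.2% (53.8 to 58.6) of knockout peaks. Its median length was 128 and 105 nt, against 61 and 68 nt on the 5′ side. Middle blocks, which are whole exons of the peak, numbered 285 and 545, with medians of 131 and 134 nt. Middle blocks over 200 nt were 17.2% (13.0 to 22.1) and 20.7% (17.4 to 24.4) of them.

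**Figure D1:**
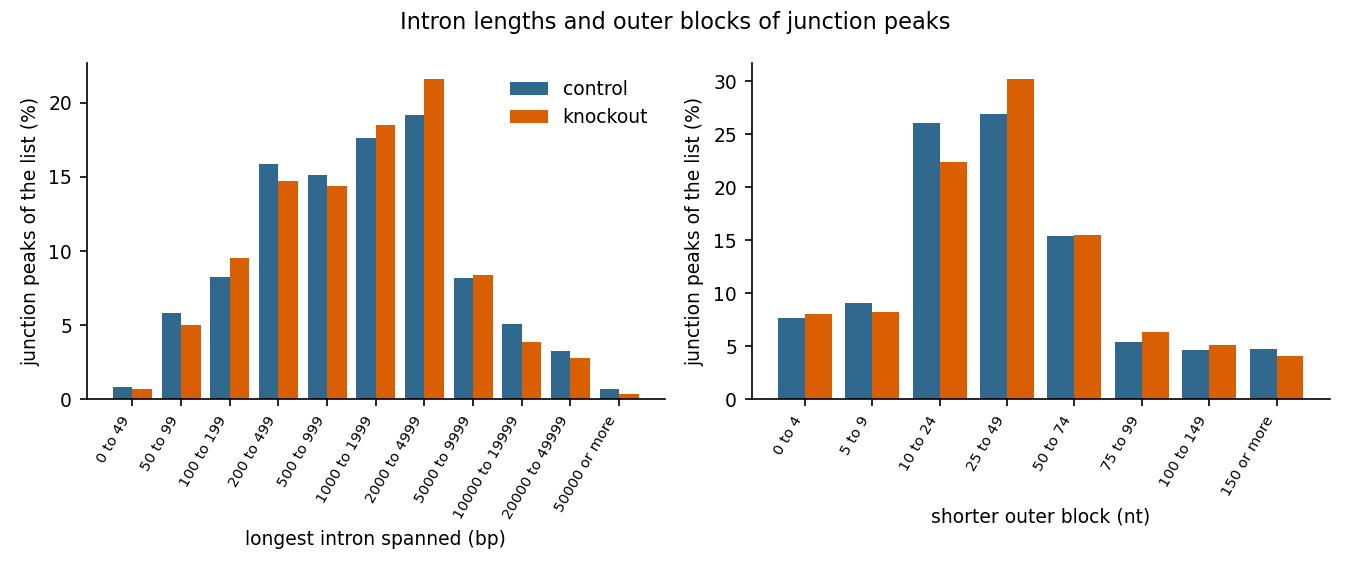
Shares of the 1281 control and 1696 knockout junction peaks (vertical axes, percent) by the longest intron each peak spans (left, bp, in steps of unequal width) and by the length of its shorter outer block (right, nt). The 2 lists have nearly the same shape, with medians of 1211 and 1231 bp for the intron and 32 and 33 nt for the block.

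The introns spanned ran from a few bases to the better part of a megabase, with like medians in both lists. The longest intron of a peak had a median of 1211 bp (1066 to 1356) in control and 1231 bp in knockout islets. It was under 200 bp in 15.0% and 15.3% of peaks, and 10000 bp or more in 9.06% (7.54 to 10.8) and 7.02% (5.85 to 8.34). The plot of intron lengths and outer blocks shows that in both lists the fullest of its unequal steps is the one that starts at 2000 bp. Gaps under 50 bp, shorter than mammalian introns usually are, were the longest gap of 11 control and 12 knockout peaks. Ndufb10, a subunit gene of respiratory complex I, had a gap of 5 bp and the fructose transporter gene Slc2a5 one of 6 bp, with the same blocks in both lists.

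The longest single intron was 729767 bp in Hs6st3, a heparan sulfate sulfotransferase gene, in the control list, where the peak had 179 nt upstream and 32 nt downstream of it. Introns of 100000 bp or more were spanned by 5 control and 3 knockout peaks. In the control these included Fbxl17 (144461 bp), Igf1r (144234 bp), Pclo (128163 bp) and Cdh8 (121024 bp). Pclo, a scaffold gene of the active zone of exocytosis, had the longest intron of the knockout list as well. It was followed by an intron of 119059 bp in a peak without a gene name and one of 110829 bp in Pcsk2, the prohormone convertase gene. The Pclo peaks held 1979 nt in control and 3359 nt in knockout islets, with folds of 3.35 and 9.53. By contrast the Hs6st3, Fbxl17, Cdh8 and Pcsk2 peaks had no overlap with the other list, and the Igf1r peak overlapped a single-block knockout peak. Long introns thus stood in peaks with and without a counterpart.

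Positions within genes were measured to the ends of RefSeq gene spans for the 1175 control and 1592 knockout junction peaks that lay inside 1 span of their own gene name. Junction peaks lay less often near the 3′ gene end than single-block peaks. Within 2000 bp of it were 242 control junction peaks (20.6%, 18.3 to 23.0), against 39.1% (38.1 to 40.2) of single-block peaks and 36.9% of all control peaks so placed. In the knockout 300 (18.8%, 17.0 to 20.9) lay there, against 37.2% (36.1 to 38.4) of single-block peaks and 33.7% of all. This distance is not independent of how the members were chosen, since a peak inside a last exon has no junction to span. At the 5′ end the shares were 11.9% and 11.3% for junction peaks and 10.1% and 10.1% for single-block peaks. The median relative position, from 0 at the 5′ end to 1 at the 3′ end, was 0.729 for control and 0.702 for knockout junction peaks, against 0.879 and 0.869.

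Knockout junction peaks without a counterpart lay farthest from the 3′ end. Of those without overlap, 13.2% (10.8 to 15.9) lay within 2000 bp of it, against 23.4% (20.7 to 26.4) of those with overlap. Their median relative positions were 0.661 and 0.736. Control junction peaks differed less, at 19.8% (15.8 to 24.3) without and 21.0% (18.2 to 23.9) with overlap, and these intervals overlap. Single-block peaks went the other way. Within 2000 bp lay 41.3% (39.3 to 43.3) of knockout single-block peaks without overlap and 34.9% (33.5 to 36.4) of those with it. The control shares were 42.9% and 35.2%. Spanning was more frequent in the knockout list on both sides of this limit, at 10.7% against 6.70% of peaks within 2000 bp and 23.4% against 15.1% of peaks farther away.

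**Figure D2:**
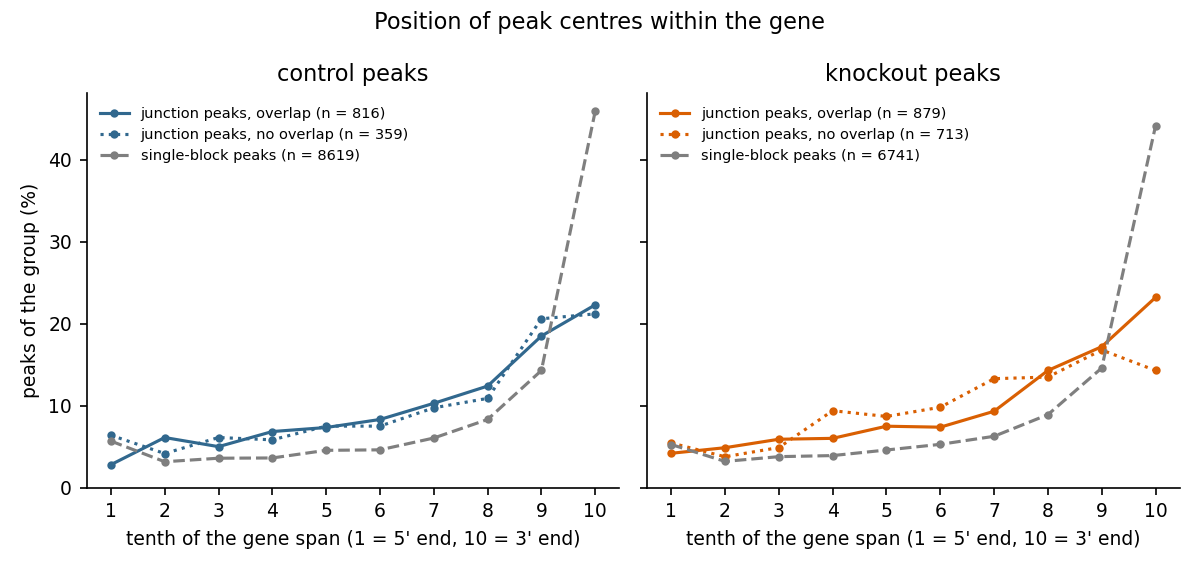
Share of peaks (vertical axis, percent) by the place of the peak centre in the gene span (horizontal axis, 10 equal steps from the 5′ end to the 3′ end), for junction peaks with and without overlap in the other list and for single-block peaks. The last step holds 45.9% of control and 44.1% of knockout single-block peaks, against 22.3% and 23.2% of junction peaks with overlap and 21.2% and 14.3% of those without.

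Junction peaks of the 2 genotypes were then set against each other by overlap of their blocks (1 bp or more on the same strand). Control junction peaks had a knockout counterpart more often than control single-block peaks, and knockout junction peaks had a control counterpart less often than knockout single-block peaks. Of control junction peaks 876 (68.4%, 65.8 to 70.9) overlapped a knockout peak, beside 49.4% (48.4 to 50.4) of single-block peaks and 51.6% of all control peaks. Of knockout junction peaks 942 (55.5%, 53.1 to 57.9) overlapped a control peak, beside 62.9% (61.8 to 64.0) of single-block peaks and 61.6% of all knockout peaks. The difference, junction minus single-block, was 19 percentage points (16.2 to 21.7) in control and −7.34 points (−9.97 to −4.71) in knockout islets. The knockout direction depended on how overlap was defined, since with at least 50% of both peaks covered the difference was 2.69 points (0.0701 to 5.33), while the control difference was 18.3. The lists differ in length and in how often peaks span junctions, and the part of these in the differences was not tested.

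The counterpart was mostly a peak across the very same junction. An identical intron, with the same start, end and strand, was spanned in the other list by 599 control junction peaks (46.8%, 44.0 to 49.5) and 593 knockout junction peaks (35.0%, 32.7 to 37.3). Because blocks end at exon edges, peaks across the same junction share its ends, so the exactness of the match is no result. With intron ends allowed to differ by up to 10 bp, the shares were again 46.8% and 35.0%. Another 37 and 40 met a junction peak with other introns, and 240 (18.7%) and 309 (18.2%) met single-block peaks alone. No overlap was found for 405 control (31.6%) and 754 knockout (44.5%) junction peaks. Counted by intron, 753 were spanned in both lists, which is 48.2% (45.7 to 50.7) of the 1562 distinct control introns and 33.8% (31.8 to 35.8) of the 2227 distinct knockout introns. Some members share sequence within a list, as 24 control and 36 knockout junction peaks overlapped another junction peak of their own list.

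**Figure D3:**
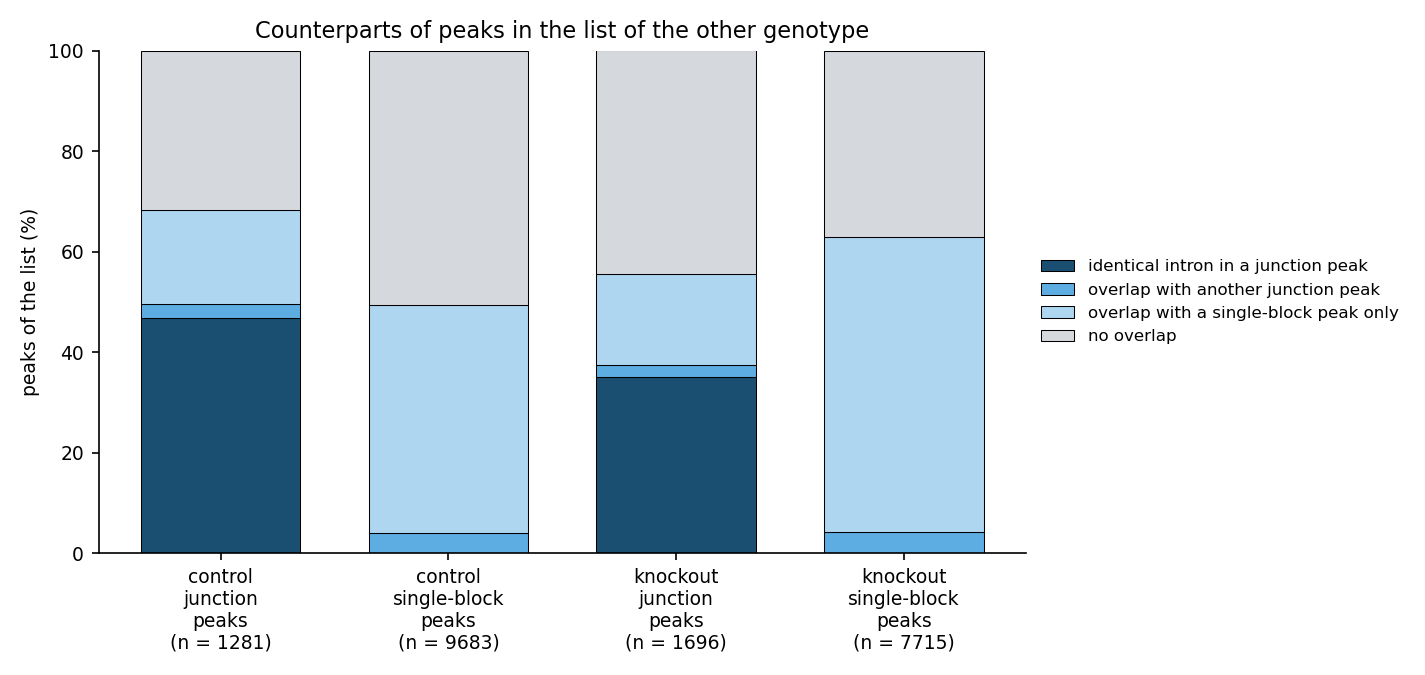
Share of peaks (vertical axis, percent) in 4 classes of counterpart in the list of the other genotype, for junction peaks and single-block peaks of each list. The no-overlap part is 31.6% for control and 44.5% for knockout junction peaks, and 50.6% and 37.1% for single-block peaks.

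Overlap followed q and length in both kinds of peak. From the lowest of the 5 q steps to the highest, overlap fell from 93.8% to 32.2% for control junction peaks and from 91.6% to 24.4% for knockout junction peaks. Within each of the 5 q steps, control junction peaks had the higher share (79.0% against 66.3% in the second step) and knockout junction peaks the lower (64.5% against 80.6%). The smallest gap was in the knockout step with the lowest q, at 91.6% (88.7 to 93.9) against 94.4% (93.1 to 95.5). By exonic length, knockout junction peaks of 151 to 200 nt overlapped in 29.8% against 49.6% of single-block peaks, and those of 501 to 1000 nt in 98.4% against 97.9%. Peaks with more blocks had a counterpart more often, at 65.5%, 81.0% and 85.7% of control peaks with 2, 3 and 4 or more blocks and 52.6%, 61.0% and 81.9% of knockout peaks. They were also longer, and block number was not separated from length here.

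**Figure D4:**
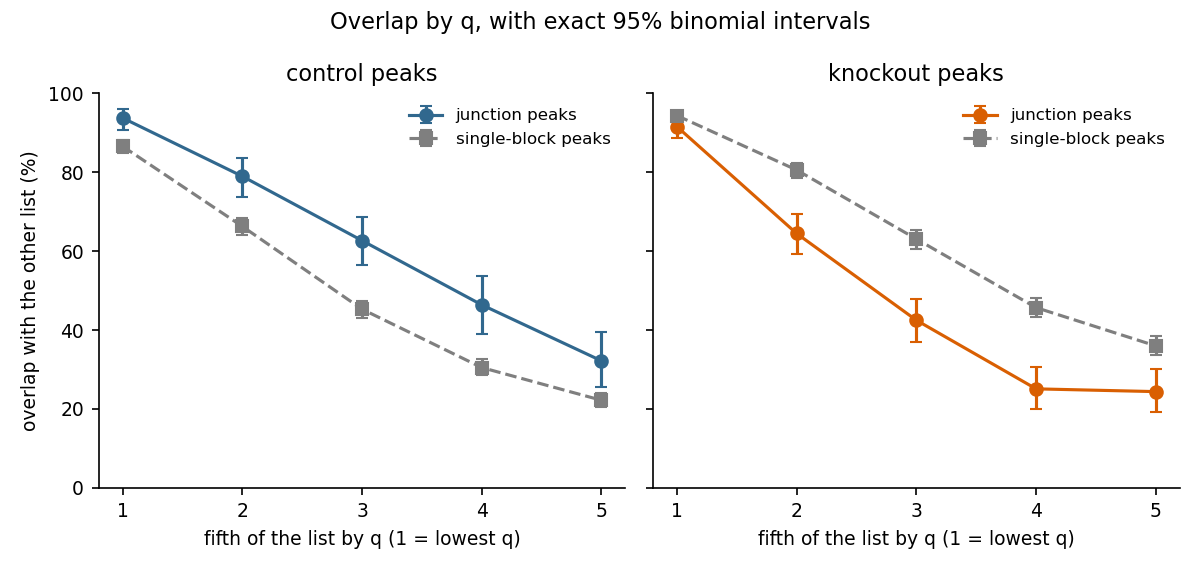
Share of peaks that overlap the other list (vertical axis, percent, with exact 95% binomial intervals) in 5 equal steps of each list by q (horizontal axis, 1 is the lowest q), for junction peaks (coloured) and single-block peaks (grey). Junction peaks lie above single-block peaks in all 5 steps of the control list and below them in all 5 steps of the knockout list.

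Classes of junction peaks differed in shape. Those with an identical intron had median exonic lengths of 270 nt in control and 299 nt in knockout islets, those without overlap 181 nt in each list. The median −log10 q was 7.70 and 8.96 with an identical intron, and 3.60 and 3.71 without overlap. Junction peaks that met single-block peaks alone were the longest class, at 450 and 359 nt, with a short arm of 22.5 and 27 nt and a 3′ arm of 306 and 199 nt. Of those without overlap, the gene still had some peak in the other list for 236 of 405 (58.3%, 53.3 to 63.1) in control and 506 of 754 (67.1%, 63.6 to 70.5) in knockout islets. For single-block peaks without overlap these shares were 49.9% (48.5 to 51.3) and 59.6% (57.8 to 61.4), so much of this was common to both kinds of peak.

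Across identical introns, 605 pairs of a control and a knockout peak could be formed. In 45 pairs (7.44%) all blocks were the same, and the overlap covered a median of 93.3% of the control and 85.8% of the knockout peak. The number of blocks was equal in 430 pairs (71.1%), higher in the knockout in 124 (20.5%, 17.3 to 23.9) and lower in 51 (8.43%, 6.34 to 10.9). The knockout fold was the higher one in 336 pairs (55.5%, 51.5 to 59.5) and the knockout q the lower one in 346 (57.2%, 53.1 to 61.2). Among 4940 overlapping pairs of single-block peaks these shares were 40.2% (38.8 to 41.6) and 37.8% (36.5 to 39.2). These shares moved with how pairs were chosen. Chosen by a spanning control peak alone, 44.1% of 978 pairs had the higher fold in the knockout, and by a spanning knockout peak alone, 58.9% of 1054.

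Some long knockout peaks joined stretches that the control list held as separate peaks. The knockout peak of Eif3a, which encodes a subunit of an initiation factor of translation, had 8 blocks and 1796 nt over chr19:60762103-60771116. It met 3 control junction peaks of 2, 3 and 3 blocks with 389, 868 and 390 nt. The control folds were 3.57, 3.13 and 2.44, and the knockout fold was 6.17. The knockout peak of Kif21a at chr15:90970692-90991715 likewise had 10 blocks and 1290 nt and met 3 control junction peaks of 4, 3 and 3 blocks with 511, 270 and 271 nt. Myh9, which encodes a nonmuscle myosin heavy chain, had a knockout peak of 9 blocks that met 2 control junction peaks. At least 2 peaks of the other list were met by 92 control junction peaks (7.18%, 5.83 to 8.74). The knockout count was 95 (5.60%, 4.56 to 6.80). Among single-block peaks the shares were 4.92% (4.49 to 5.37) and 4.91% (4.44 to 5.42), and the knockout junction share lay near the latter. Such a count is wider than joining. The Eef1a1 junction peak of each list met 2 peaks of the other, although each list held 1 peak under that name.

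**Figure D5:**
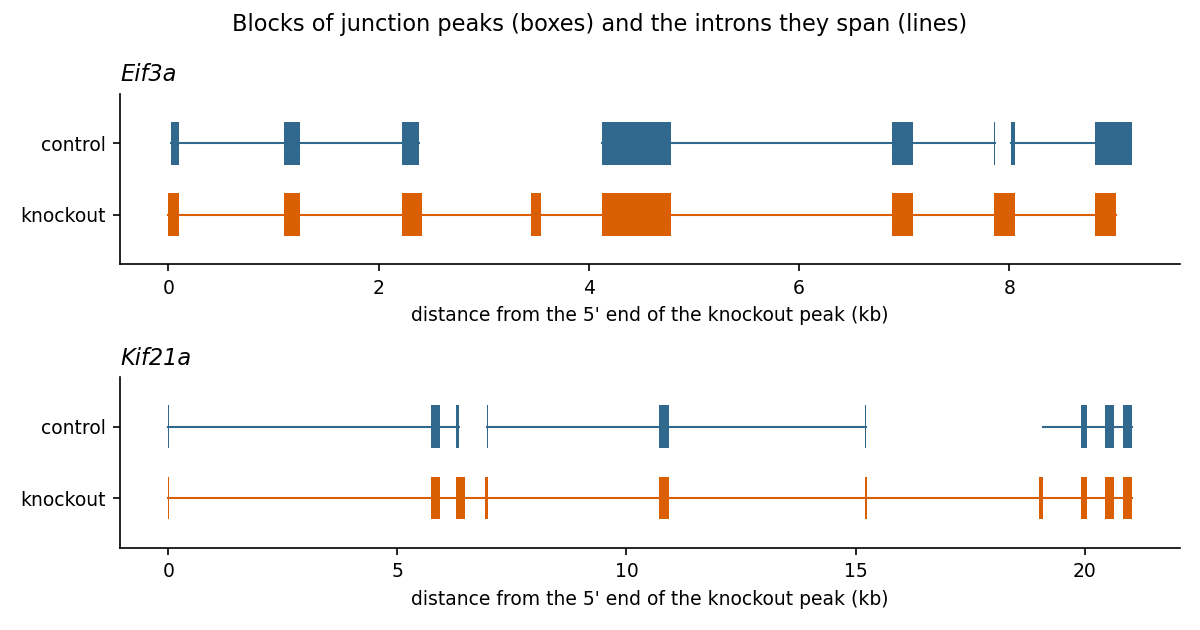
Blocks (boxes) and spanned introns (lines) of the junction peaks of Eif3a and Kif21a in both lists, to scale, along the distance in kb from the 5′ end of the long knockout peak (horizontal axis). The knockout peaks of 8 and 10 blocks each overlap 3 control peaks. The Kif21a knockout peak covers all 3, whereas in Eif3a the control peak at the 3′ end reaches beyond the knockout peak. The blocks that both lists hold share their inner edges.

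At the level of genes, a junction peak was listed in 1070 of 6250 genes with a control peak (17.1%) and 1273 of 5378 genes with a knockout peak (23.7%). Both lists had one in 599 genes, which is 56.0% (52.9 to 59.0) of the control and 47.1% (44.3 to 49.8) of the knockout genes, and 503 of these 599 had an identical intron. A junction peak stood in the control list alone for 471 genes, of which 306 had a single-block peak in the knockout list and 165 no peak. For the knockout list alone the counts were 674, 440 and 234. Most genes had 1 junction peak (909 and 998), and 36 control and 88 knockout genes had 3 or more. Genes with more peaks more often had a junction peak, from 10.8% of control genes with 1 peak to 40.5% with 4 or more. In the knockout these shares were 14.8% and 53.1%. A gene with more peaks has more chances to hold a junction peak, so such a rise is partly built in. Counted by peak, 10.8% (9.79 to 11.8) spanned a junction in control genes with 1 peak. In control genes with 4 or more peaks, 11.8% (10.6 to 13.1) did, and these intervals overlap. In the knockout the shares by peak were 14.8% (13.6 to 16.0) and 21.3% (19.6 to 23.0).

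The genes with the most junction peaks included several that encode very long proteins. Dst, a cytoskeletal linker gene, had 7 junction peaks among 23 control peaks and 11 among 28 knockout peaks, and Macf1, another spectraplakin gene, had 3 of 11 and 8 of 18. The nuclear envelope gene Syne1 had 3 of 8 and 6 of 13, and the nuclear pore basket gene Tpr 2 of 2 and 6 of 6. Chd4, an ATPase gene of the NuRD chromatin complex, had 5 of 6 in each list, and all 5 shared an intron with the other list. Hdlbp, which encodes the RNA-binding protein vigilin, went the other way, with 6 of 6 in control and 3 of 3 in knockout islets. Of its 6 control junction peaks 2 shared an intron with the knockout and 4 had no overlap.

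Groups of genes are given as the number with a junction peak of the number with any peak. The same share over all named genes was 1017 of 5659 (18.0%) in control and 1225 of 4803 (25.5%) in knockout islets. Group sizes were small, and no group was tested against these shares. The number of peaks per gene also differs between groups, and its part in these counts was not tested.

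Among genes of islet hormones and granule proteins, 9 of 18 had a junction peak in control and 15 of 24 in knockout islets, and all 9 were among the 15. Chga, which encodes chromogranin A, had 1 peak of 4 blocks in each list, starting at chr12:102561348 in both, with 1169 nt and a fold of 2.54 in control and 1109 nt and 2.94 in knockout islets. The q of both was listed as 0. Scg2 (secretogranin II) had 1018 nt in control and 1108 nt in knockout islets across an intron of 2937 bp, with folds of 3.02 and 2.87 and q listed as 0. Granule protein transcripts thus held some of the junction peaks of lowest q in either genotype. By fold, these Chga and Scg2 peaks lay below the junction peak medians of 3.49 in control and 3.26 in knockout islets. Scg3 (secretogranin III) had a control peak of 5 blocks with a fold of 1.76 and a knockout peak of 6 blocks with 2.08 across the same 4 junctions. A second Scg3 peak had 4 blocks in control and 5 in knockout islets, with folds of 1.86 and 2.36 and 3 identical introns. Junction peaks of Chgb, Pcsk2, Scg5 and Slc30a8, the zinc transporter gene of insulin granules, were listed in the knockout alone. The Chgb peak of 1788 nt overlapped a single-block control peak, whereas its second peak of 240 nt and the Pcsk2 and Scg5 peaks had no overlap. Scg5 had no control peak of any kind.

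Hormones of other islet cells had low folds and very low q. Gcg, the glucagon gene of alpha cells, had a peak of 3 blocks in both lists, with 330 nt and a fold of 1.36 in control and 360 nt and 1.60 in knockout islets, and q listed as 0 in both. Ppy, the pancreatic polypeptide gene, had the same 236 nt in both lists, with folds of 1.53 and 1.65. Its −log10 q was 137 in control and its q was listed as 0 in knockout islets. Alpha cell markers had 1 of 6 in control and 2 of 8 in knockout islets (Gcg and, in the knockout, Irx2). Delta and PP cell markers had 3 of 4 and 2 of 7, among them Casr, the calcium-sensing receptor gene, with 1 and 3 junction peaks and folds of 2.61 and 3.07 across their shared intron of 9186 bp.

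Markers of cells outside the endocrine islet also had junction peaks, in at most 4 genes of a group in either list. Of the 15 endothelial markers looked for, 10 had a control peak of any kind and 9 a knockout peak. Endothelial markers had 4 of 10 and 4 of 9, with Kdr at folds of 4.24 and 4.82 and Pecam1 at 2.70 and 4.13 across the same introns. Ductal markers had 1 of 5 (Krt18) and 2 of 7 (Krt7 and Anxa4), acinar markers 0 of 3 and 1 of 4 (Try4), immune markers 1 of 4 (H2-Eb1) and 2 of 3 (Cd74 and H2-Ab1), and stromal markers 0 of 5 and 1 of 4 (Col4a1). Apart from the endothelial genes and H2-Ab1, which met a single-block control peak, each of these named peaks had no overlap with the other list. The part of such cells in the lists was not tested.

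Beta cell transcription factor genes had a junction peak in 7 of 22 (control) and 6 of 20 (knockout), with 5 genes in both. Neurod1 had 1290 nt across an intron of 1502 bp in control and 1320 nt in knockout islets, with folds of 3.45 and 2.99 and −log10 q of 265 and 43.1. Nkx6-1 had 3 blocks and 1166 nt in control and 2 blocks and 598 nt in knockout islets, with folds of 2.53 and 2.85. The knockout peak was thus the shorter one in Nkx6-1 and the longer one in Neurod1. Pdx1 had a control peak of 2 blocks and 1200 nt (fold 5.55) that overlapped a single-block knockout peak. Pax6 had 3 control and 4 knockout junction peaks, of which 2 in each list shared an intron with the other list. Mlxipl was named in the control alone (fold 2.22) and Rfx6 in the knockout alone (fold 2.87), both without overlap.

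In the glucose sensing, excitation and exocytosis group, 12 of 33 and 15 of 32 genes had a junction peak. Syt7, a calcium sensor gene of exocytosis, had 2 in each list across the same introns of 816 and 4155 bp, with folds of 3.21 and 2.37 in control and 8.56 and 2.83 in knockout islets. The fold of 8.56 came with a −log10 q of 3.27. Cplx2 (complexin 2) had 3 blocks and 688 nt in control and 4 blocks and 718 nt in knockout islets, reaching across a further intron of 7005 bp. Kcnk16, a potassium channel gene, had folds of 2.28 and 1.75 across an intron of 275 bp.

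Insulin signalling genes had a junction peak in 10 of 20 (50%, 27.2 to 72.8) in the control list and 4 of 18 (22.2%, 6.41 to 47.6) in the knockout list, and no gene of the group had one in the knockout alone. Irs2, Foxo3 and Pik3r1 were among the genes with one in both lists, each across an identical intron. Foxo3 had the same 360 nt in both lists, across an intron of 9972 bp, with folds of 4.21 and 4.54. Irs2, an adaptor of the insulin receptor, had folds of 7.20 and 3.30 across its intron of 17455 bp. Named among the 6 in the control alone were Igf1r, Igf2r and Gsk3b, and each of these 3 control peaks overlapped a single-block knockout peak. In these 3 genes a knockout peak was present and lay within 1 exon.

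Genes of folding in the endoplasmic reticulum and the unfolded protein response had 15 of 39 and 18 of 37. Calr, the calreticulin gene, had 451 nt and 421 nt across an intron of 99 bp, with folds of 2.36 and 2.89. Pdia3, a disulfide isomerase gene, had 3 blocks and 449 nt (fold 2.57) in control and 6 blocks and 778 nt (fold 2.95) in knockout islets, which reached upstream into 3 further exons. Its −log10 q was 69.6 and 150. Dnajb9, a co-chaperone gene of the same pathway, had folds of 4.61 and 1.82 with −log10 q of 92.3 and 12.8. The stress sensor gene Ern1 itself had a junction peak in the knockout alone (fold 2.56), beside a single-block control peak. Peaks of this group thus stood on either side, longer in the knockout for Pdia3 and lower in fold for Dnajb9.

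Genes of splicing itself often had junction peaks. Of SR proteins and core splicing factors, 18 of 38 (47.4%, 31.0 to 64.2) had one in control and 26 of 37 (70.3%, 53.0 to 84.1) in knockout islets, 16 of them in both. Snrnp70, of the U1 particle, had 4 blocks and 751 nt in control and 3 blocks and 691 nt in knockout islets, with folds of 7.49 and 3.93. Luc7l3 had 749 and 719 nt in 4 blocks, with folds of 5.36 and 5.59. Rbm25 had 2 in each list across the same introns, and its folds differed in opposite directions. Across the intron of 699 bp the fold was 3.01 in control and 15.9 in knockout islets, and across that of 3832 bp it was 13.7 and 5.44. Son, a speckle scaffold gene, had 3 junction peaks in the knockout alone, and Srsf4 1 in the control alone that met a single-block knockout peak.

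Exon junction complex and nonsense-mediated decay genes had 5 of 14 in control and 9 of 14 in knockout islets, with 4 in both. Acin1, a splicing-linked member of the complex, had 2 control junction peaks, both with an identical intron in the knockout, where it had 4. Its folds across the intron of 239 bp were 7.12 and 4.29, and across that of 1438 bp 4.91 and 5.65, where the blocks were the same. Casc3, a core subunit, had 1 in each list at different places, neither with overlap. Upf1 and Upf2, of nonsense-mediated decay, had them in the knockout alone.

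Genes of the m6A machinery had 4 of 14 in control and 6 of 16 in knockout islets. Wtap, the deleted gene, had no control junction peak and 1 knockout junction peak of 181 nt at chr17:12969434-12972739, across an intron of 3125 bp with 55 nt on its 5′ and 126 nt on its 3′ side. Its fold was 3.37 and it overlapped no control peak. A peak in the Wtap mRNA does not check the genotype label, because which exon was removed is not given in the sources used here and other islet cells were present. The reader gene Ythdf3 had 1768 nt in control and 420 nt in knockout islets across the same intron of 8530 bp, with folds of 4.18 and 4.28, and Rbm15b, of the writer complex, had 534 nt in both, with 3.99 and 5.65. Ythdf1 and Ythdf2 had a junction peak in the control alone (folds of 3.35 and 5.13), and Virma, Ythdc1 and Hnrnpc in the knockout alone (6.99, 4.03 and 4.89). Ythdf2, Virma and Ythdc1 met single-block peaks of the other list, and Ythdf1 and Hnrnpc no peak.

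Among genes of structural and general roles, chromatin regulators had 18 of 29 in both lists, with 15 genes in both. Arid1a, of the SWI/SNF remodeller, had a peak of 2038 nt in control and 1919 nt in knockout islets across an intron of 2379 bp, with folds of 6.65 and 4.36. Cytoskeleton genes had 11 of 22 and 16 of 26, and kinesin and myosin genes 7 of 22 and 10 of 18. Translation factors had 11 of 30 and 14 of 30, with Eef1a1 at 416 and 386 nt across an intron of 53 bp and folds of 4.24 and 2.11. Ubiquitin ligase and protease genes had 19 of 91 and 26 of 84, among them Trim44 with the highest control fold of any junction peak, 62.1, and 8.62 in the knockout across the same intron of 19071 bp.

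Oxidative phosphorylation genes had 3 of 12 and 9 of 18, and ribosomal protein genes 1 of 11 and 5 of 18. The share over all named genes was also higher in the knockout list, at 25.5% against 18.0%. The knockout ribosomal share of 27.8% (9.69 to 53.5) lay near that of all named genes. Rpl8 was the one ribosomal gene in both lists, with folds of 1.68 and 1.76 across an intron of 149 bp. Ndufb7, Ndufa13 and Ndufb11, of respiratory complex I, had their only peak in the knockout list, with folds of 3.94, 4.40 and 2.38. Glycolysis and tricarboxylic acid cycle genes had 0 of 5 and 1 of 6 (Ogdh). The lowest shares among the large groups were those of zinc finger protein genes, which often carry one very long last exon. They had 18 of 265 (6.79%, 4.08 to 10.5) in control and 16 of 217 (7.37%, 4.27 to 11.7) in knockout islets. Solute carrier genes had 15 of 99 (15.2%) and 10 of 76 (13.2%), histone genes 2 of 26 and 2 of 23, and collagen genes 0 of 5 and 1 of 2.

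The lowest q of a control junction peak without a counterpart (−log10 q of 58.1) belonged to a peak without a gene name. Among such peaks of named genes, those of lowest q in the control were Uggt1 (−log10 q of 37.7, fold 3.07), Surf4 (35.0, fold 2.08), Nol4 (21.5, fold 7.00), Maz (21.0, fold 5.79), Sgpl1 (20.2, fold 3.33) and Tmed8 (19.9, fold 3.40). Uggt1, Surf4 and Sgpl1 had no knockout peak of any kind. Surf4 encodes a cargo receptor of the early secretory pathway. In the knockout the named ones were Pcsk2 (22.9, fold 1.66), Rrbp1 (22.1, fold 3.77), Scg5 (21.3, fold 1.48), Pdia4 (20.9, fold 1.95), Tax1bp1 (19.3, fold 4.95) and Ddc (19.2, fold 3.62). Scg5 and Ddc, the aromatic amino acid decarboxylase gene, had no control peak, while Pcsk2 had 5 and Rrbp1 6 elsewhere. These 12 were chosen for having no overlap, which is a description and no test.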

How the data were processed

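Peak calling by the authors used exomePeak 2.16.0, with the input of the same genotype behind each IP and a q-value threshold of 0.05, per the labels. The submitters' processing notes name fastp 0.19.11, BWA 0.7.12 and HOMER 4.9.1 and the build GRCm38 (mm10), and per the labels RNA was cut to about 100 nt, held with the antibody for 2 hr at 4 °C and read as 150 bp pairs. The annotation release is not given in the sources used here. The deposited p-value of each peak was computed by the authors' caller, per the file headers. The deposited log10 p and log10 q columns are score columns from the same caller, and the former matched the logarithm of the p-value within 0.02. Fold enrichment, a ratio of IP to input, was deposited as the caller gave it, per the file headers. A q of 0 ranked lowest. Lists were assigned to genotypes by a prefix that sample titles carry too.

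Members were all peaks with more than 1 block, in 2977 of 20375 peaks of both lists, and none was left out; 57 control and 49 knockout members have no gene name. Gaps between blocks were read as introns. Coordinates are 1-based on GRCm38. RefSeq gene spans (GRCm38.p6) were matched by gene name and chromosome. Shares have Clopper-Pearson 95% intervals and medians have binomial order-statistic intervals. Overlap differences combine the intervals of both shares. Genes were named by a rule: in each list the members of lowest q (8), most blocks (5), longest intron (5), longest exonic length (5) and lowest q without overlap (6), genes with 4 or more members, the best 8 pairs with an identical intron, a few genes of each list of genes, and Wtap with the m6A machinery; not all are described. The members, the lists of genes and the rule were chosen with earlier results of these data known, and the histone name pattern was corrected after the files were read. The code was tested on simulated data, with 0 of 2000 peaks put in a wrong class and 0 of 40000 pairs with a wrong overlap length. Python 3.11.15, numpy 2.4.6, pandas 2.3.3, scipy 1.17.1 and matplotlib 3.10.9 were used.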

Additional observations from a re-analysis of the deposited data

Results flagged for a closer look

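Junction peaks and single-block peaks stood in opposite order in the 2 lists by overlap with the other genotype. Overlap of junction peaks was 19 percentage points above that of single-block peaks in control islets and differed from it by -7.34 points in knockout islets. With 1 pool a genotype, the difference between these values was not tested. Control junction peaks stood above single-block peaks under every setting tried, whereas the knockout value reversed to 2.69 points when at least 50% of both peaks had to overlap. No value had groups large enough to look for a sample apart from the rest.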

How the results depend on the processing

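In all, 183 values were recomputed under 10 settings. Of these, 139 stayed within their interval or within 1.5 times the count, 43 moved further and 1 reversed. All but the overlap differences of junction and single-block peaks, which were added after the data were seen, were planned. With peaks of q above 0.001 left out of both lists, the spanning share was 12.7% of control and 19.5% of knockout peaks, peaks of 2 blocks were 80.4% and 73.3% of junction peaks, the median exonic length was 299 and 241 nt, and the median −log10 q 7.68 and 6.96. With a fold of at least 2, the median fold was 3.65 and 3.42, overlap 62.7% and 50.5%, and an identical intron was found for 41.4% and 31.0%. Without peaks of fold 8 or more, the spanning share was 12.7% and 19.2% and the median fold 3.34 and 3.12. With equal numbers of lowest-q peaks, the control values were 270 nt, a −log10 q of 6.88, 72.9% overlap and 49.6% with an identical intron, and knockout overlap was 52.5%. With a peak of either list counted as spanning only if both outermost blocks had at least 25 nt, the spanning share was 6.68% and 11%, the median longest intron 924 and 1118 bp, the shorter outer block 51 and 50 nt, an identical intron was found for 40% and 28.2%, and genes with a junction peak numbered 645 and 847, with 329 in both. There the control values were also 270 nt, a −log10 q of 6.64 and 71.2% overlap, and 80.7% of knockout junction peaks had 2 blocks. The peaks not counted stayed in the lists as targets of overlap but not of identical introns; against all junction peaks of the other list, an identical intron was found for 53.3% and 37.2%. The cause of these moves was not tested. Without peaks that have no gene name, the knockout spanning share was 18.9%. With overlap of at least 50% of both peaks, junction peaks overlapped in 51.7% of control and 43.6% of knockout cases, and the knockout difference from single-block peaks reversed to 2.69 percentage points; the cause was not tested. Within 1000 bp of the 3′ end lay 10.9% of control and 9.80% of knockout junction peaks. No paired analysis was possible because there is 1 pool a genotype and the lists carry no replicate numbers, and no replicate could be left out. The planned look at sequence motifs around the junctions was not run, since no genome sequence was used here. Depth is unknown, so a peak missing from a list may be below its detection limit.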

Other observations

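Gaps of a few bases between blocks appeared in genes with the same blocks in both lists, as in Ndufb10 (5 bp) and Slc2a5 (6 bp). Under 50 bp was the longest gap of 11 control and 12 knockout junction peaks, and with such gaps left uncounted the overlap differences were 19.1 and -7.49 percentage points.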
